A study of Rattus norvegicus with 30 samples.

Results

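The 10 genes described here encode sarcomere proteins of the actin-based thin filament and of the structures that hold it in place. They are the actins Actc1 and Acta1, the troponins Tnnt2, Tnni3, Tnni1 and Tnnc1, the tropomyosin Tpm1, the Z-disc crosslinker Actn2, the thick filament protein Mybpc3 and the giant spring protein Ttn (titin). They were taken by symbol from the normalized tables of each age, where they filled 14 of 27408 rows at 8 weeks, 14 of 27383 at 21 weeks and 14 of 26553 at 78 weeks, and every row of a name was kept. Those rows rest on 18 of the 41012 probes of the array that are not controls, and 7 further probes that the array's annotation assigns to titin were read beside them. Tnnc1 and Tpm1 had 2 rows each and Ttn had 3.

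The study measured hearts of untreated F344 rats, an inbred strain, from the breeding colony of a toxicology center. There were 6 groups, females and males at 8, 21 and 78 weeks of age, with 5 rats per group and 1 array per rat, and all groups shared the same diet. Whole hearts were used, so a fall in a transcript cannot be told apart from a smaller share of the cells that make it. The study's methods state that the ages were handled as different batches, so age and batch cannot be told apart, and age differences below describe these arrays.

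In striated muscle, calcium binds troponin C, the inhibitory troponin I then releases actin, and troponin T anchors the complex to tropomyosin, which moves on the actin strand and frees the sites for myosin. The rodent heart changes isoforms around birth. Skeletal alpha-actin (Acta1) and slow skeletal troponin I (Tnni1) are the isoforms known from the fetal and newborn heart, and cardiac alpha-actin (Actc1) and cardiac troponin I (Tnni3) are those of the adult. Titin runs from the Z-disc to the M-band and carries passive tension, alpha-actinin 2 crosslinks thin filaments in the Z-disc, and cardiac myosin binding protein C lies along the thick filament.

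The fetal and adult isoforms were read by separate probes of 60 bases, and those of Actc1, Tnni1 and Tnni3 are shown because the isoforms are told apart by the probes being distinct. Actc1 had 2 probes, and the brighter is shown. The longest run of bases shared by the Acta1 probe and that Actc1 probe was 6, and that shared by the Tnni1 and Tnni3 probes was also 6. All sequences are those of the scanner files, 5′ to 3′, with positions in rat build rn3. Actc1 was read at chr3:99798340-99798399 on the minus strand. Tnni1 was read at chr13:48854116-48854175 on the plus strand, and the Tnni3 probe covers 526 bases of the plus strand at chr1:68108321-68108846, so it is not contiguous in the genome.
Actc1: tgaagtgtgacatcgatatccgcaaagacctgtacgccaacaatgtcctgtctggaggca
Tnni1: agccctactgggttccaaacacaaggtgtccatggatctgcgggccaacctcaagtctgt
Tnni3: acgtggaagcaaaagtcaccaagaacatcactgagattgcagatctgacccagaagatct

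For titin, the probe of row 3 and a further titin probe of the array overlap by 40 bases, shown in capitals, so these 2 probes are not independent readings. They lie at chr3:59364689-59364748 and chr3:59364709-59364768 on the minus strand. The dim probe of row 2 lies at chr3:59491712-59491771, also on the minus strand, far upstream. The probe of Tnnc1 row 1 is an expressed sequence tag at chr16:6641597-6642107 on the minus strand, and the probe of Tnnc1 row 2 lies on the plus strand, so row 1 reads the orientation opposite to row 2. The annotation of these positions as exon or intron was not used here.
Ttn row 3: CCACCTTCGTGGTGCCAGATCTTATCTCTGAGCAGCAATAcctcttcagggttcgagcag
Ttn, overlapping probe: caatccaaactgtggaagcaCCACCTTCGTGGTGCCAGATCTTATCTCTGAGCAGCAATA
Ttn row 2, dim probe: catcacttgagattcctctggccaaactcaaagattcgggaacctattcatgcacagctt
Tnnc1 row 1: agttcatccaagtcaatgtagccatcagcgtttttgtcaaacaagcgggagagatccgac

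Array brightness differed between rats. The 75th percentile of the processed signal ran from 36.9 to 157 over the 30 arrays, a 4.26-fold range, and its median was 111 at 8 weeks, 93.1 at 21 weeks and 98.8 at 78 weeks. The number of probes well above background had a median of 21288 at 8, 19683.5 at 21 and 21028.5 at 78 weeks, with the lowest number, 15904, in the weakest array, male replicate 2 of 21 weeks. By their Y-linked genes 2 arrays resembled the sex they were not labelled as, those labelled 78-week female replicate 2 and 78-week male replicate 3. Their labels were kept, and 78-week results were also computed without this pair. All 8-week arrays were scanned on 1 day, all 21-week arrays on another, and the 78-week arrays on both. A fit with scan day as a block therefore takes the day effect from the 78-week arrays alone. All 14 cardiomyocyte markers examined, among them Myh6, Myh7, Ryr2 and Pln, were well above background on all 30 arrays.

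Skeletal alpha-actin was lower in old than in young hearts. Values across ages are given as multiples of the array's own 75th percentile. At 8 weeks Acta1 read 28.9, 11.6, 19, 17.8 and 25.4 in the females and 25.4, 24.5, 28.4, 31.7 and 24.3 in the males. At 21 weeks it read 15.3, 21.6, 18.6, 16.7 and 11.9 in females and 28.2, 23.1, 19.2, 18.6 and 22.4 in males. At 78 weeks it read 11.4, 13.3, 11, 18.1 and 9.97 in females and 14.3, 12.9, 10, 26.4 and 10.9 in males. Within each sex the rats of 8 and 78 weeks overlapped. Females ran from 11.6 to 28.9 at 8 weeks and from 9.97 to 18.1 at 78 weeks. Males ran from 24.3 to 31.7 and from 10 to 26.4. The 8-week female replicate 2, at 11.6, lay below most 78-week males, and 78-week male replicate 4, at 26.4, lay above most 8-week rats.

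**Figure D1:**
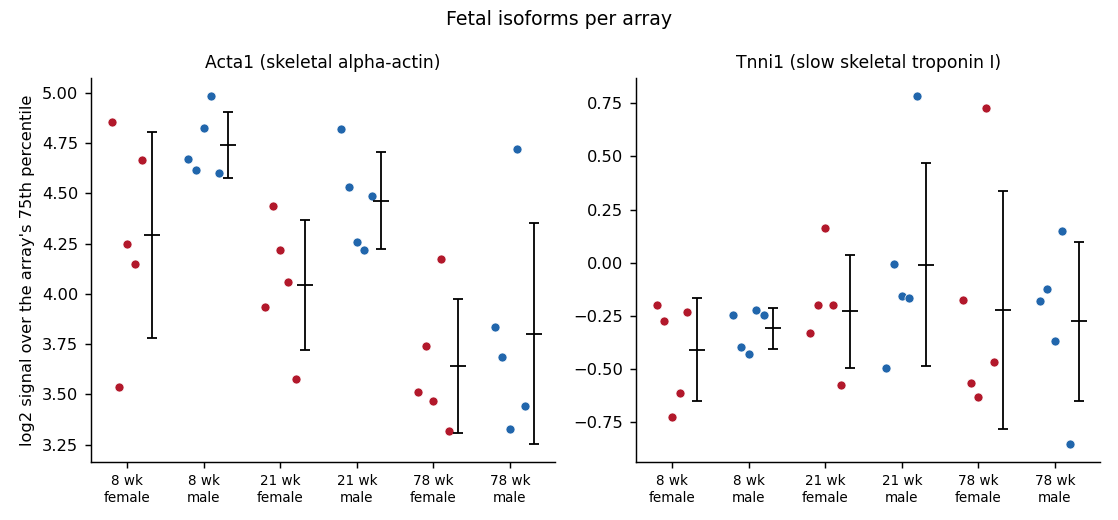
Levels of the Acta1 and Tnni1 probes on each of 30 arrays, as log2 of the signal over the array's 75th percentile, by age and sex. Points are rats (red females, blue males), and the horizontal mark and bars give the mean ± SD of 5 rats. The Acta1 means of both sexes step down from 8 to 21 to 78 weeks, and the Tnni1 groups overlap at every age.

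The mean log2 level of Acta1 in females was 4.29 ± 0.51 (SD, n = 5) at 8 weeks, 4.04 ± 0.32 at 21 weeks and 3.64 ± 0.33 at 78 weeks. In males the levels were 4.74 ± 0.16, 4.46 ± 0.24 and 3.80 ± 0.55. With both sexes averaged, the 78-week level was lower than the 8-week level by a log2 difference of -0.79 (SE 0.17), a 1.73-fold fall (limma adjusted p = 0.00209), and lower than the 21-week level by -0.53 (SE 0.17, limma adjusted p = 0.0148). The difference between 21 and 8 weeks, -0.26, did not pass (limma adjusted p = 0.182), although quantile normalization (-0.46, limma adjusted p = 0.034) and the median signal (-0.38, limma adjusted p = 0.023) called it. The order of the ages was therefore 8, 21 and 78 weeks from highest to lowest, and of the steps between neighbours only that from 21 to 78 weeks passed the test, although the arrays of both ages overlapped. That step was not called under normexp background correction (-0.40), under quantile normalization (-0.34), among females alone (-0.40) or with scan day as a block (-0.34).

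The fall from 8 to 78 weeks in Acta1 was -0.65 among females (limma adjusted p = 0.195) and -0.94 among males (limma adjusted p = 0.0442), and the interaction of sex and age was not called. On the slide shared by rats of both ages it was -0.96, with -1.15 for the female pair and -0.77 for the male pair, but with slide as a fixed block the limma adjusted p was 0.483. Without the pair of arrays whose Y-linked genes opposed their labels it was -0.75 (limma adjusted p = 0.0082), and under normexp background correction -1.07 (limma adjusted p = 0.0649). Among markers of fast skeletal muscle, which also uses Acta1, Myh4 was well above background on 3 of 30 arrays, Myh1 on 4, and Myh8 and Pvalb on 1 each. Actn3 and Atp2a1 were so on 12 each, Myh2 on 17, Tnnt3 on 27, Tnnc2 on 28 and Mybpc2 on 29. Mylpf, Tnni2, Casq1 and Ckm were well above background on all 30. Of the 14 genes of that list 2 rose and 1 fell at 78 against 8 weeks, where 4.56% of all probes rose and 4.34% fell. Their summed level, most of it Ckm, which the heart also makes, had medians of 388 (females) and 353 (males) at 8 weeks, and of 342 and 307 at 78 weeks. The part of such muscle in the Acta1 result was not tested.

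Slow skeletal troponin I showed no called difference between ages. Tnni1 values were 0.87, 0.827, 0.605, 0.653 and 0.851 in 8-week females and 0.843, 0.759, 0.743, 0.857 and 0.842 in 8-week males. At 21 weeks they ran from 0.672 to 1.12 (median 0.869) in females and from 0.709 to 1.72 (median 0.896) in males. At 78 weeks they ran from 0.644 to 1.66 (median 0.722) in females and from 0.553 to 1.11 (median 0.883) in males. The groups overlapped at all ages, and the highest values were single rats, 21-week male replicate 5 and 78-week female replicate 4. The log2 differences were 0.24 between 21 and 8 weeks, 0.11 between 78 and 8 weeks and -0.13 between 78 and 21 weeks, with limma adjusted p of 0.21, 0.687 and 0.538.

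The adult isoforms were read near the top of the scanner's range. The probes of Actc1 (both), Tnni3, Tnnt2, which encodes cardiac troponin T, Tnnc1 row 2 and Tpm1 row 2 (all 3) had median processed signals of 51390 to 63272, where the scanner saturates at 65502. That limit applies before processing, and the highest processed signal of the brighter Actc1 probe lay above it. Over the 30 arrays each of these 8 probes varied only 1.19 to 2.28-fold, from lowest to highest signal, while the arrays' 75th percentile varied 4.26-fold. The other 10 member probes varied 2.47 to 72.0-fold. The Tnnc1 row 2 probe, for troponin C of heart and slow muscle, was saturated on all 30 arrays, so no difference is given for it. The brighter Actc1 probe was saturated on 8 of 10 arrays at 8 weeks, 8 at 21 weeks and 5 at 78 weeks. Of the Tpm1 row 2 probes 1 was saturated on 8 of the 30 arrays and another on 3, and Tnni3 was saturated on 1.

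**Figure D2:**
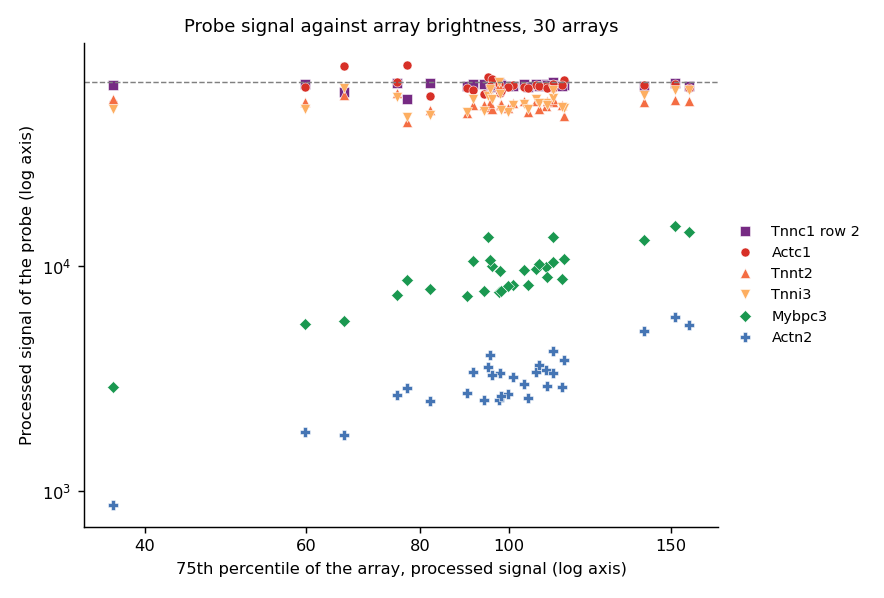
Processed signal of 6 member probes against the 75th percentile of the same array, both on log axes, for 30 arrays. The dashed line is the scanner's saturation value, 65502, which applies to the signal before processing. The upper 4 probes stay near that line on dim and bright arrays alike, while Mybpc3 and Actn2 rise with the brightness of the array.

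Divided by the array's 75th percentile, these 8 probes therefore moved in the opposite direction to the array's brightness. Their normalized levels spanned 3.26 to 4.35-fold over the 30 arrays, and the highest levels were on the weakest array, 21-week male replicate 2, at 1400 for the dimmer Actc1 probe, 1340 for Tnni3 and 1490 for Tnnt2. On the other 21-week male arrays Tnni3 read 599, 574, 828 and 927, and in 21-week females 537 to 744 (median 601). At 8 weeks Tnni3 ran from 407 to 516 (median 489) in females and from 382 to 532 (median 435) in males, and at 78 weeks from 441 to 642 (median 518) and from 470 to 593 (median 482).

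At 21 against 8 weeks the 7 of these probes other than Tnnc1 row 2 were all called higher, by log2 differences of 0.52 to 0.64 (limma adjusted p between 0.00016 and 0.0021). Of all 40997 probes tested in that comparison 54% were called, 39.6% higher and 14.4% lower at 21 weeks, and the median difference of all probes was itself 0.29. Relative to that median the 7 probes lay 0.23 to 0.36 higher. None of the 7 was called under quantile normalization, where their differences ran from -0.06 to 0.09, under normexp background correction, where they ran from 0.02 to 0.19, or with scan day as a block. Among females alone 1 of 7 was called, and among males alone all 7. None of the 7 was called at 78 against 8 weeks. The part of the scanner's limit in these differences was not tested. Of Tpm1 row 2, 1 probe lacked a value on 8-week male replicate 2, whose spot was an outlier.

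The distance between fetal and adult isoform is given as measured, and no change in the balance of isoforms is read from it. Over the 30 arrays the signal of the dimmer Actc1 probe varied only 1.42-fold and that of Tnni3 only 1.43-fold, so the distance follows the raw signal of Acta1 or Tnni1, which also carries the brightness of the array. The log2 level of Acta1 minus that of the dimmer Actc1 probe was -4.54 ± 0.57 (SD, n = 5) for the females and -4.03 ± 0.38 for the males of 8 weeks, -5.10 ± 0.40 and -5.11 ± 0.65 at 21 weeks, and -5.31 ± 0.32 and -5.15 ± 0.50 at 78 weeks. The log2 level of Tnni1 minus that of Tnni3 was -9.31 ± 0.35 and -9.12 ± 0.19 at 8 weeks, -9.52 ± 0.25 and -9.68 ± 0.51 at 21 weeks, and -9.27 ± 0.39 and -9.25 ± 0.30 at 78 weeks.

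The remaining rows of the troponin, tropomyosin and filament support genes lay below the limit. The opposite-orientation probe of Tnnc1 row 1 rose from 8 weeks, where it read 0.248 to 0.351 in females and 0.148 to 0.432 in males. It read 0.301 to 0.401 and 0.25 to 1.12 at 21 weeks, and 0.406 to 0.568 and 0.411 to 0.562 at 78 weeks. The log2 difference was 0.60 (SE 0.21) at 21 against 8 weeks (limma adjusted p = 0.0163) and 0.82 (SE 0.21) at 78 against 8 weeks (limma adjusted p = 0.0103). All 78-week females lay above all 8-week females, while the males of these ages overlapped. How many of all probes separated in this way was not computed. Neither call held among males alone (limma adjusted p = 0.0518 and 0.245), under normexp background correction (limma adjusted p = 0.0562 and 0.0707) or with scan day as a block (limma adjusted p = 0.543 and 0.0721). Whether this row follows Tnnc1 messenger RNA cannot be read from a probe of the opposite orientation.

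Actn2, Mybpc3 and Tpm1 row 1, which the array annotates to other transcript variants than row 2, were not called in either comparison with 8 weeks. Actn2 read 29.8 to 36.4 in 8-week females and 30.2 to 39.1 in 8-week males, and its log2 differences were -0.05 (SE 0.10) at 21 and -0.18 (SE 0.10) at 78 weeks (limma adjusted p = 0.662 and 0.249). Mybpc3 read 89.5 to 94.2 in 8-week females and 81.1 to 98.6 in 8-week males, with differences of 0.14 (SE 0.10) and -0.03 (SE 0.10) and limma adjusted p of 0.245 and 0.851. Tpm1 row 1 read 12.3 to 19 and 15.3 to 20.4 at 8 weeks, with differences of 0.01 (SE 0.13) and -0.04 (SE 0.13) and limma adjusted p of 0.946 and 0.873. The rats spread more at 21 and 78 weeks than at 8 weeks in Mybpc3, which ran from 78 to 141 in 21-week males and from 76.5 to 112 in 78-week females.

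Titin was lower in the 21-week hearts than at either other age. The bright probe of row 2, the 3′-most on the strand of the gene, read 81.5, 107, 105, 95.3 and 99.6 in 8-week females and 104, 101, 95.8, 74.5 and 99.1 in 8-week males. At 21 weeks it read 61.7, 30.5, 46, 43.9 and 42.1 in females and 46.9, 16.2, 19.5, 23.2 and 13.3 in males. At 78 weeks it read 104, 85.2, 98.3, 92.7 and 107 in females and 96.6, 88.2, 96.9, 93 and 92.5 in males. Every 21-week rat lay below every 8-week and every 78-week rat, and the 8-week and 78-week values overlapped.

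The same order held for row 3, well inside the gene. It read 2.39, 3.52, 3.48, 2.58 and 2.88 in 8-week females and 3.51, 3.65, 2.53, 1.76 and 2.86 in 8-week males. At 21 weeks it read 1.34, 0.486, 0.577, 0.804 and 0.706 in females and 0.968, 0.216, 0.247, 0.455 and 0.278 in males, and 1 of these male values was not well above background. At 78 weeks it read 3.87, 3.9, 3.42, 1.89 and 2.97 in females and 3.87, 5.2, 2.96, 2.83 and 3.63 in males. Again no 21-week rat reached the range of another age, and replicate 1 was the highest rat of both sexes at 21 weeks in both rows.

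**Figure D3:**
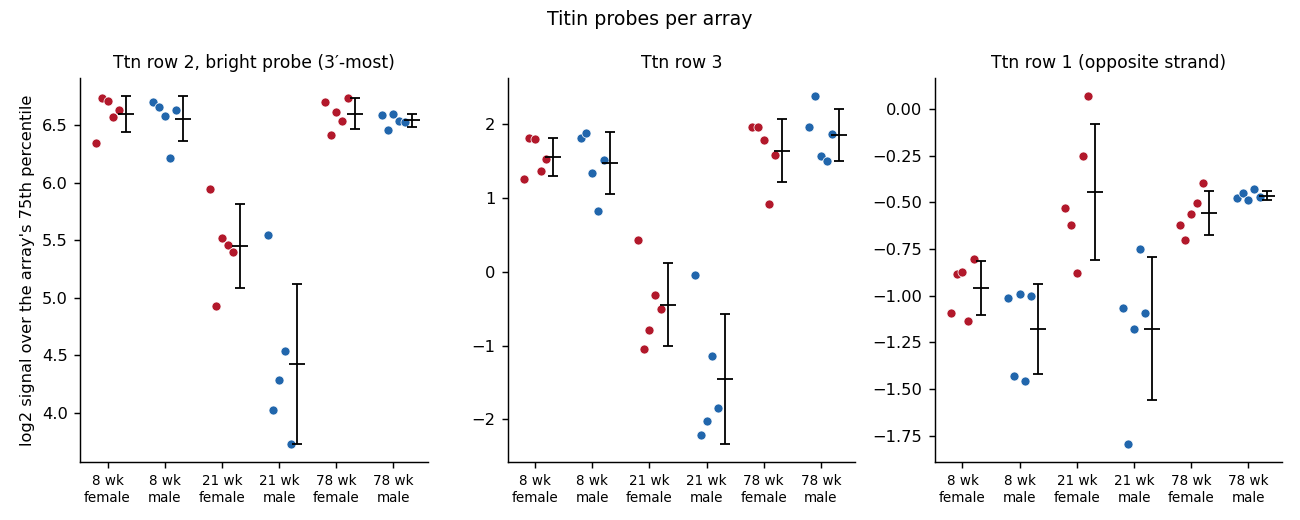
Levels of 3 titin probes on each of 30 arrays, as log2 of the signal over the array's 75th percentile, by age and sex. Points are rats (red females, blue males), and the horizontal mark and bars give the mean ± SD of 5 rats. The first 2 panels drop at 21 weeks in both sexes and return at 78 weeks, and the probe of the opposite strand shows no such drop.

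The bright probe fell by 1.64 (SE 0.15) on the log2 scale from 8 to 21 weeks (3.12-fold, limma adjusted p = 1.18e-08), and row 3 fell by 2.46 (SE 0.23), or 5.50-fold (limma adjusted p = 1.18e-08), with 9 of 10 arrays well above background at 21 weeks. At 78 against 21 weeks they rose by 1.64 and 2.69 (limma adjusted p = 7.54e-09 and 2.23e-09). Between 8 and 78 weeks their differences were -0.01 (SE 0.15) and 0.23 (SE 0.23), with limma adjusted p of 0.983 and 0.515. The dim probe of row 2 was well above background on 10 arrays at 8 weeks, on 2 at 21 weeks, both of females, and on 9 at 78 weeks. In males it was at least 2.17-fold lower at 21 than at 8 weeks and at least 2.84-fold lower than at 78 weeks, where the 21-week level is set by the lowest signal well above background or, where higher, by the probe's own signal on each array. Its age difference was not called under normexp background correction (limma adjusted p = 0.726).

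All 10 probes on the strand of titin, 3 of rows 2 and 3 and 7 others, fell at 21 against 8 weeks. In 6 of them every array of every age was well above background, and these fell by log2 differences of -2.52 to -1.11 with a median of -2.03, or 2.17 to 5.75-fold, with a largest limma adjusted p of 3e-07. The other 4, among them row 3 and its overlapping probe with 9 and 8 of 10 arrays well above background at 21 weeks and the dim probe with 2, partly read background there, so their differences are not exact. Over all 10 the differences ran from -2.58 to -1.11 with a median of -2.12, in a comparison that called 54% of all probes and 14.4% as lower. With the median difference of all probes taken off, they lay between -2.87 and -1.40. At 78 against 21 weeks all 10 rose, by 0.94 to 2.79, where 30.5% of all probes were called, 12.9% higher and 17.7% lower, and the median of all probes was -0.19. At 78 against 8 weeks none of the 10 was called, with differences of -0.17 to 0.29 and limma adjusted p of 0.348 to 0.983, where 8.89% of all probes were called, 4.56% higher and 4.34% lower, and the median was 0.12. In 8 of 10 probes every 21-week array lay below every 8-week array, and in 9 of 10 below every 78-week array. The share of all probes whose ages separated in this way was not computed, so these counts only describe the titin probes. The 2 overlapping probes shown above differed by -2.46 and -2.58, and the smallest fall, -1.11, was at the probe farthest upstream.

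**Figure D4:**
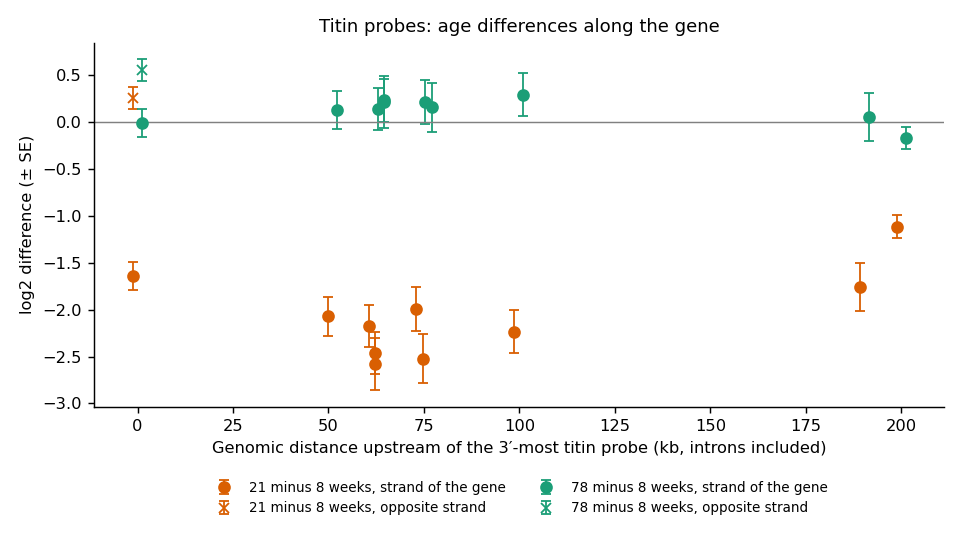
Age differences of the titin probes against their genomic distance upstream of the 3′-most probe, in kb with introns included (points of the 2 comparisons are set slightly apart sideways). Circles are the 10 probes on the strand of the gene, crosses the probe of the opposite strand, and bars are ± SE. The circles lie between -2.58 and -1.11 for 21 against 8 weeks and between -0.17 and 0.29 for 78 against 8 weeks. The crosses lie at 0.26 and 0.56.

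The fall of titin was present in each sex. Among females alone the bright probe differed by -1.15 and row 3 by -2.0 (limma adjusted p = 0.000458 and 0.000414), and among males alone by -2.14 and -2.92 (limma adjusted p = 0.000207 and 0.00022). With scan day as a block the differences were -1.66 and -1.99 (limma adjusted p = 0.000757 and 0.00317). No scan day held arrays of both 8 and 21 weeks, so the day effect in that fit comes from the 78-week arrays. With each array left out in turn the bright probe stayed between -1.78 and -1.56 and row 3 between -2.64 and -2.37. Row 3 differed by -1.51 under normexp background correction, a smaller change by more than 1.5 times. The median 75th percentile of the arrays was 97.4 (females) and 66.0 (males) at 21 weeks against 110 and 115 at 8 weeks. It was 95.2 and 99.6 at 78 weeks. The part of array brightness in the titin result was not tested. Of the other lists of heart and muscle genes, Ryr2, the calcium release channel, fell by 1.00 on the log2 scale at 21 against 8 weeks (limma adjusted p = 1.36e-05). Of the 14 cardiomyocyte markers 10 rose and 3 fell (Ryr2, Corin and Kcnj3), where 39.6% of all probes rose and 14.4% fell, and of those that rose Myh6 and Mb were saturated on 30 arrays, Myh7 on 29 and Myl3 on 9.

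The probe of Ttn row 1, which lies 0.09 kb beyond the 3′-most titin probe on the opposite strand, did not share the fall. It read 0.456 to 0.573 in 8-week females and 0.365 to 0.503 in 8-week males, 0.544 to 1.05 and 0.288 to 0.595 at 21 weeks, and 0.616 to 0.761 and 0.712 to 0.743 at 78 weeks. Every 78-week rat lay above every 8-week rat, but the share of all probes that separated in this way was not computed. The log2 difference was 0.56 (SE 0.11) at 78 against 8 weeks, 1.47-fold (limma adjusted p = 0.00164), and 0.26 (SE 0.11) at 21 against 8 weeks (limma adjusted p = 0.0575). The difference of 0.30 at 78 against 21 weeks passed narrowly (limma adjusted p = 0.0462), and that call was lost in 19 of the 30 fits that left out a single array. The rise from 8 to 78 weeks was 0.40 among females alone (limma adjusted p = 0.205), and with slide as a fixed block it was 0.35 (limma adjusted p = 0.607).

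Counted over all 18 member probes, 9 rose and 3 fell at 21 against 8 weeks, and 8 of the 9 that rose were those near the scanner's limit, the saturated Tnnc1 row 2 included. At 78 against 8 weeks 2 rose (Tnnc1 row 1 and Ttn row 1) and 1 fell (Acta1). At 78 against 21 weeks 4 rose, all of them titin probes, and 6 fell, 5 of them near the scanner's limit and the other Acta1. The medians over the 18 probes were 0.39, 0.16 and -0.24, beside 0.29, 0.12 and -0.19 over all probes, and 54%, 8.89% and 30.5% of all probes were called. These comparisons share the groups of each age between them.

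No row of the 10 genes differed between females and males at any age after adjustment. The share of all rows called was 0.102% at 8 weeks (28 of 27408), 0.0511% at 21 weeks (14 of 27383) and 0% at 78 weeks, where 1501 of 26553 rows had an unadjusted p under 0.05 and the methods' t-test called 0 rows after adjustment. The 78-week tests kept the 2 arrays whose Y-linked genes opposed their labels, which can shrink a sex difference. Without that pair some rows were called, as counted in the closing section, but no member row below the scanner's limit gained a call. Among the 14 member rows, 0 had an unadjusted p under 0.05 at 8 weeks, 3 at 21 weeks and 0 at 78 weeks, where 5.74%, 15.9% and 5.65% of all rows had one. The ranges of both sexes overlapped in all 14 rows at each age, and did not overlap in 1.41%, 4.05% and 0.9% of all rows. The values used here are those of the authors' tables, in which 1 stands for the 75th percentile of that table, so they are not comparable across ages. A p that missed the threshold does not show that the sexes were equal.

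**Figure D5:**
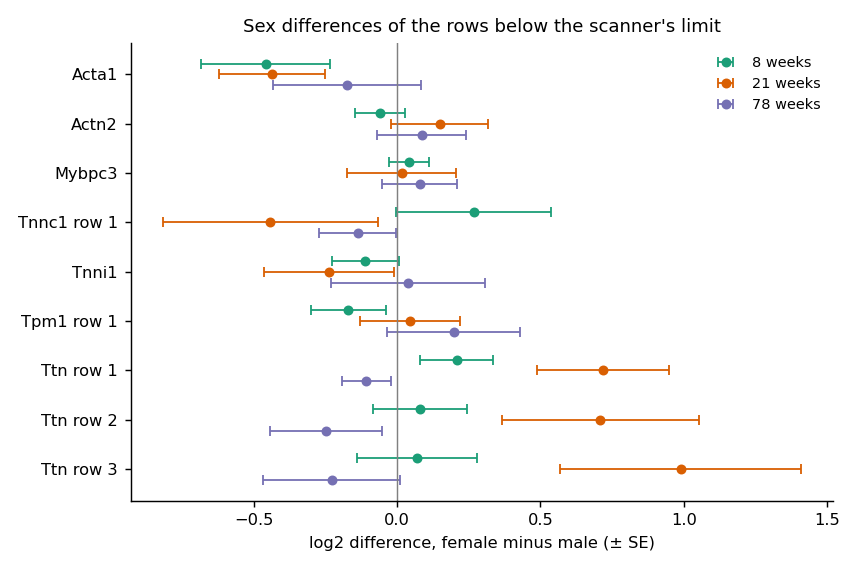
Sex differences of the 9 rows below the scanner's limit, as log2 female minus male, at 8, 21 and 78 weeks. Points are limma estimates and bars are ± SE from 5 females and 5 males per age. The 3 titin rows lie to the right at 21 weeks, Acta1 lies to the left at each age, and none of the differences passed the adjusted threshold.

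Acta1 was lower in females in the sample at each age. At 8 weeks the table values were 16.4, 6.61, 10.9, 10.2 and 14.5 in females and 14.9, 14, 16.3, 18.1 and 13.8 in males, a log2 difference of -0.46 (SE 0.22, limma adjusted p = 0.9, two-sided exact permutation p = 0.0952). At 21 weeks they were 8.48, 12.2, 10.4, 9.49 and 6.65 in females and 16.1, 13.1, 11, 10.7 and 12.3 in males, and the difference was -0.44 (SE 0.19, limma adjusted p = 0.302, two-sided exact permutation p = 0.0317). At 78 weeks they were 6.04, 7.18, 5.92, 9.43 and 5.39 in females and 7.67, 6.98, 5.4, 13.9 and 5.95 in males, and the difference was -0.17 (SE 0.26, limma adjusted p = 0.923, two-sided exact permutation p = 0.603). Without 78-week male replicate 4 the last difference turned to 0.05, and the 21-week difference was 0.03 under normexp background correction.

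The titin rows, of which row 1 reads the opposite strand, were higher in females than in males at 21 weeks, without passing the adjusted threshold. In that comparison the median difference of all rows was -0.14. The median 75th percentile was 97.4 on the female arrays and 66.0 on the male arrays. The part of array brightness in these sex differences was not tested. Row 2 is the geometric mean of a bright probe and a dim probe that was well above background in 2 of 5 females and 0 of 5 males, so its difference is not exact. It was 1.25 ± 0.38 (SD, n = 5) in females and 0.80 ± 0.36 in males, a difference of 0.71 (SE 0.34, limma adjusted p = 0.329, two-sided exact permutation p = 0.0952). Row 3 was 0.438 ± 0.185 in females and 0.246 ± 0.180 in males, a difference of 0.99 (SE 0.42, limma adjusted p = 0.302, two-sided exact permutation p = 0.0714), which was 0.06 under normexp background correction. Row 1, of the opposite strand, was 0.423 ± 0.110 and 0.258 ± 0.0638, a difference of 0.72 (SE 0.23, limma adjusted p = 0.277, two-sided exact permutation p = 0.0159). At 8 weeks the 3 differences were 0.21, 0.08 and 0.07 for rows 1, 2 and 3, and at 78 weeks -0.11, -0.25 and -0.23. The test of whether the sex difference itself changed between ages called none of the 18 member probes, with a lowest limma adjusted p of 0.275 for 21 against 8 weeks, 1 for 78 against 8 weeks and 0.211 for 78 against 21 weeks. Of all probes 0.00244%, 0% and 0.00244% were called in these tests.

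Sex differences of the remaining rows below the scanner's limit did not pass the test either, and none was more than 1.5 times its SE. Tnni1 differed by -0.11 (SE 0.12) at 8 weeks, -0.24 (SE 0.23) at 21 weeks and 0.04 (SE 0.27) at 78 weeks. Actn2 differed by -0.06 (SE 0.09), 0.15 (SE 0.17) and 0.09 (SE 0.15), and Mybpc3 by 0.04 (SE 0.07), 0.02 (SE 0.19) and 0.08 (SE 0.13). Tpm1 row 1 differed by -0.17 (SE 0.13), 0.05 (SE 0.18) and 0.20 (SE 0.23), and Tnnc1 row 1 by 0.27 (SE 0.27), -0.44 (SE 0.38) and -0.14 (SE 0.13). All rows near the scanner's limit overlapped between the sexes as well, and no difference is given for them.

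Other genes of thin filament make-up and length, other actin, tropomyosin and troponin isoforms, capping proteins and nebulin relatives, changed in both directions. Of 23 genes measured, 7 rose and 4 fell at 21 against 8 weeks, 4 rose and 3 fell at 78 against 8 weeks, and 5 rose and 9 fell at 78 against 21 weeks, with median log2 differences of 0.09, -0.05 and -0.27 beside 0.29, 0.12 and -0.19 over all probes. Of all probes 39.6% rose and 14.4% fell in the first comparison, 4.56% and 4.34% in the second, and 12.9% and 17.7% in the third. At 21 weeks slow skeletal troponin T (Tnnt1) rose by 0.80 (limma adjusted p = 6.47e-05), the pointed-end cap Tmod4 by 0.55 and the actin-severing Cfl2 by 0.46, and Tmod3 fell by 0.30. At 78 against 8 weeks the actin nucleator Lmod2 and the anchoring protein Nrap rose by 0.55 each (limma adjusted p = 2.47e-05 and 0.000168), Tnnt1 rose by 0.52, and Tmod3 fell by 0.45, the cytoplasmic actin Actg1 by 0.26 and Tpm4 by 0.26. At 78 against 21 weeks Tmod4 fell by 0.81, the barbed-end cap Capzb by 0.62, the cytoplasmic actin Actb by 0.47 and Tpm4 by 0.41, and Nrap rose by 0.56.

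Among 39 measured genes of the Z-disc, the M-band and the partners of titin, 16 rose and 10 fell at 21 against 8 weeks, 11 rose and 3 fell at 78 against 8 weeks, and 13 rose and 10 fell at 78 against 21 weeks, with medians of 0.13, 0.10 and 0.12, beside the same shares and medians of all probes. Xirp2, which binds actin at cell junctions, fell by 0.64 at 21 against 8 weeks and rose by 1.26 at 78 against 21 weeks, and Murc, a caveolar protein of muscle, fell by 0.63 at 21 weeks. Obsl1, a cytoskeletal adaptor, fell by 0.52 at 21 weeks. The titin-binding ankyrin repeat gene Ankrd1 rose by 0.63 and the muscle ring finger gene Trim54 by 0.77 at 21 weeks, along with Fhl2 by 0.52 and Cryab by 0.57, the last of them saturated on 6 of 30 arrays.

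The largest rise of that list between 8 and 78 weeks was Ankrd23, another ankyrin repeat protein bound to titin, by 1.55 (SE 0.18, limma adjusted p = 7.89e-07). Ankrd1 rose by 0.62, Xirp2 by 0.62, Smpx by 0.51, the M-band gene Myom2 by 0.48 and Trim54 by 0.40, and the Z-disc gene Myoz2 fell by 0.55 and Obsl1 by 0.42. Against 21 weeks Ankrd23 rose by 1.17, the Z-disc filamin Flnc by 0.59 and Actn1 by 0.58, and Fhl2 fell by 0.98, Myoz2 by 0.81 and Myom3 by 0.64. Of 7 fibroblast markers, 5 fell and 1 rose at 21 against 8 weeks, where 14.4% of all probes fell and 39.6% rose. At 78 against 8 weeks 2 fell and 0 rose, where 4.34% of all probes fell and 4.56% rose. Col3a1, the brightest of them at 8 weeks, had log2 levels of 7.64 (females) and 8.00 (males), and 6.26 in both at 21 weeks. The summed level of the 7 markers had medians of 533 (females) and 599 (males) at 8 weeks against 367 and 363 at 21 weeks. It was 365 and 394 at 78 weeks. The part of fibroblasts in these results was not tested. No gene of either list was called between the sexes at any age.

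Across the 30 arrays, with each group's mean taken off, the genes closest to Acta1 among 14399 probes well above background were Vopp1 (Pearson r = 0.863), Slc25a14 (0.812), Golga3 (0.812), Cd151 (0.81) and Ppp2ca (0.806). Among those closest to Tnni1 were Bcl2l1 (0.843), Mdh1 (0.838), Baalc (0.829) and Eif2a (0.828). These values describe how the arrays of a group varied together, and the arrays share brightness and slide.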

How the data were processed

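Total RNA from heart powder (RNA integrity number of 8.0 or above) was labelled with Cy3 and hybridized to Agilent whole rat genome arrays, 8 slides of 4 arrays with both sexes on each. Males lay at other positions than females. The authors read the arrays with Agilent Feature Extraction (9.5.1.1 per the file headers), and the deposited scanner files hold a processed signal with background taken off. For the brighter Actc1 probe the highest processed signal lay above the scanner's limit, so background was not the only step in it. The deposited tables of each age hold intensity averaged over the probes of a gene and divided by the array's 75th percentile, on a linear scale. Table rows followed the scanner files in 99.7% of cases within 0.002 log2. Columns of 21-week males could be tied to their group but not to a rat.

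Sex was tested within each age on log2 table values, and age on log2 of the deposited processed signal minus log2 of the array's 75th percentile over all probes that are not controls, with group means of all 6 groups, both with limma 3.58.1 in R 4.3.3 and Benjamini-Hochberg adjustment over all rows or probes (threshold 0.05). Scripts were tested on simulated data. Exact permutation tests were also computed in R. Sex as the only term follows the methods, which used analysis of variance without adjustment for multiple tests. Moderation and adjustment were added here. Outlier spots were left out of the main age tests, while the table values used for sex keep all spots. Spread between rats, 5 per group, limits the precision. Alternatives were normexp (offset 50), median signal, quantile normalization, a filter on probes above background on under 50% of arrays, slide, scan day and replicate blocks, each sex alone, the methods' t-test, and leaving out arrays. Same-numbered rats shared a slide, and at 78 weeks all 5 pairs deviated together (r = 0.154 to 0.353). A shared slide and a pairing of rats cannot be told apart there. The main sex test did not use the pairs, and the replicate block did.

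Members, lists and tests were chosen with earlier results of these data known. All member rows were named, up to 8 genes per list and comparison with the largest called differences, detected above background on every array, and the 5 genes most like Acta1 and Tnni1. Some items that this rule names are not reported here. Probes had 1 name from the tables (22177), RefSeq (2025) or the scanner files (16810).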

Additional observations from a re-analysis of the deposited data

Results flagged for a closer look

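In 54 groups of 5 rats, the lowest or highest table value was set against its nearest neighbour, and 5 were farther away than Dixon's 95% limit, where chance alone gives about 1 in 20. Ttn row 2 was low in 8-week female replicate 1, at 2.41 against a nearest value of 3.22 (gap over range 0.713). The same row was low in 8-week male replicate 4, at 2.09 against 3.18 (gap over range 0.83). Actn2 was low in 21-week female replicate 5, at 14.5 against 19.3 (gap over range 0.766). In 78-week male replicate 4, Actn2 was high at 19.5 against 14.6 (gap over range 0.765), and Mybpc3 was high at 58.6 against 44.4 (gap over range 0.857).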

How the results depend on the processing

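Over 73 results of single rows or probes and 17 other settings, 666 values kept direction and side of the threshold, 50 lost the call, 11 gained it and 27 turned direction. Under normexp the sex difference turned to 0.0338 for Acta1 at 21 weeks, and at 78 weeks to -0.25 (Actn2), -0.28 (Mybpc3), 0.14 (Tnnc1 row 1), -0.0466 (Tpm1 row 1) and 0.0688 (Ttn row 1), and at 21 against 8 weeks Mybpc3 turned to -0.29 and Tpm1 row 1 to -0.39. At 21 against 8 weeks quantile normalization gave -0.0159 for the dimmer Actc1 probe, -0.19 for Mybpc3, -0.16 for Tpm1 row 1 and -0.0586 for a probe of Tpm1 row 2. Tpm1 row 1 was -0.12 with the median signal, -0.10 in males only and -0.0033 with slide as a random block, and Mybpc3 was -0.0547 with scan day as a block. Females only gave 0.0530 for Actn2 at 21 against 8 weeks, 0.15 for Tpm1 row 1, -0.28 for the dim and 0.0013 for the bright probe of Ttn row 2 at 78 against 8 weeks, and -0.11 for Ttn row 1 at 78 against 21 weeks. At 78 against 8 weeks Tpm1 row 1 was 0.19 with scan day as a block and 0.44 with slide as a fixed block, Mybpc3 was 0.0252 and the bright Ttn row 2 probe 0.0161 with that block, and without the 2 arrays whose Y-linked genes opposed their labels these were 0.0123 and 0.0101. Of these, the 2 probes of Actc1 and Tpm1 row 2 and, at 78 against 21 weeks, Ttn row 1 had been called, and the others had not. The cause was not tested.

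Counts of called rows moved as follows. Between the sexes they were 28, 14 and 0 at 8, 21 and 78 weeks. At 8 weeks normexp gave 17, slide as a block 15, the replicate block 5 and the methods' t-test unadjusted 1780. At 21 weeks they were 1, 22 (median signal), 22 (filter on dim probes), 5 (replicate block) and 4361. At 78 weeks quantile normalization gave 1, the unadjusted t-test 1547, and leaving out that pair of arrays 9. At 8 and 21 weeks same-numbered rats did not all deviate together, and no member row was called with the replicate block at any age. At 21 against 8 weeks 22140 probes were called (16241 higher, 5899 lower), with normexp 2874 (1405 and 1469), quantile 12717 (6677 and 6040), the dim filter 12628 (7165 and 5463), females only 4067 (2000 and 2067) and scan day 3825. At 78 against 8 weeks 3646 were called, with normexp 750, females only 958, males only 805 and slide as a fixed block 195. At 78 against 21 weeks 12510 were called, with normexp 1141, females only 4538 and scan day 8081. Changes of the sex difference called 1, 0 and 1 probes at 21 against 8, 78 against 8 and 78 against 21 weeks. Alternatives for these, chosen after seeing the data, gave 0 (normexp), 4 (quantile) and 2 (without that pair), then 2 (quantile) and 1 (dim filter), then 0 (normexp), 2 (median signal) and 2 (without that pair).

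With each array left out in turn the sex counts ranged from 13 to 32, 8 to 20 and 0 to 1, the age counts from 19597 to 24013, 3035 to 4547 and 11581 to 15381, and the counts of changed sex difference from 0 to 117, 0 to 1 and 1 to 480, the highest of the first and last without 21-week male replicate 1. Sex differences that turned ranged from -0.0533 to 0.18 (Ttn row 2) and -0.0942 to 0.17 (Ttn row 3) at 8 weeks, -0.0647 to 0.15 (Mybpc3) and -0.0907 to 0.13 (Tpm1 row 1) at 21 weeks, and -0.30 to 0.0471 (Acta1), -0.0278 to 0.18 (Actn2) and -0.19 to 0.14 (Tnni1) at 78 weeks. Age differences that turned were Tpm1 row 1 (-0.0579 to 0.0496) at 21 against 8 weeks, and at 78 against 8 weeks Tnni1 (-0.0096 to 0.18), Tpm1 row 1 (-0.0932 to 0.0372) and the dim (-0.0343 to 0.20) and bright (-0.0494 to 0.0168) probes of Ttn row 2. Signal over background limits the dim titin and Tnnc1 row 1 probes, and the scanner's range limits the brightest.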
